A study of Rattus norvegicus with 44 samples.

Results

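Kidney RNA of rats given crude MCHM at 300 mg/kg was compared with kidney RNA of rats given 500 mg/kg, the highest doses of a gavage study. The 6 arrays, 3 at 300 mg/kg and 3 at 500 mg/kg, were taken by organ and dose from the sample titles, out of 17 kidney arrays and 44 arrays in all. Crude MCHM is a technical mixture based on 4-methylcyclohexanemethanol, an alcohol used to clean coal. All animals were male Harlan Sprague Dawley rats, 6 to 8 weeks old at assignment, fed NTP-2000 and caged in groups. The 300 mg/kg group and the 500 mg/kg group were dosed with the mixture in corn oil, 5 mL per kg of body weight, on 5 consecutive days. The vehicle group of 3 kidney arrays is the study's 0 mg/kg group, and all animals were killed the day after the last dose. The labels call the arrays of a group biological replicates, and arrays with batch effects had been removed before deposit.

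The kidney filters blood through podocyte-lined glomeruli, recovers solutes in the proximal tubule, builds the salt gradient with the thick ascending limb and adjusts water and salt in the collecting duct. Proximal tubule cells also take up, oxidise and conjugate foreign compounds. They use stress programs such as the NRF2 response to reactive compounds, the ATF4 response to amino acid shortage and the chaperones of the endoplasmic reticulum. Many kidney transporters follow the circadian clock, in which BMAL1 and CLOCK drive their own repressors and the nuclear receptors NR1D1 and NR1D2 repress *Bmal1*.

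The values are log2 intensities, so a difference of 1 is a doubling, and every difference below is 300 minus 500 mg/kg. Kidney markers were bright on all 6 arrays. *Slc34a1*, the phosphate carrier of the proximal tubule, read 13.22 to 13.72 at 300 mg/kg, against 13.12 to 13.53 at 500 mg/kg. *Umod*, the thick limb's uromodulin, read 12.81 to 13.14 at 300 mg/kg, against 13.04 to 13.49 at 500 mg/kg. Among the 6 arrays, replicate 2 of the 300 mg/kg group stood apart: it correlated at 0.984 to 0.988 with the other 5 arrays, which correlated at 0.993 to 0.996 with one another. With vehicle replicates 2 and 3 this array correlated at 0.991. It lay below all other 16 kidney arrays by over 1 for 14 genes. One was *Glod5*, a glyoxalase-domain gene, at 9.55, 5.55 and 9.49 on the 300 mg/kg arrays and 9.56, 9.11 and 9.20 on the 500 mg/kg arrays. Without that array *Glod5* was higher by 0.23 rather than lower by 1.09 at 300 mg/kg. In whole kidney, fewer cells of a type and less RNA per cell cannot be told apart.

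The 300 and 500 mg/kg kidneys were not told apart by any single probe set. Of 31042 probe sets 0 passed an adjusted p of 0.05 in limma (0.0%), and the smallest adjusted p was 0.863. At an unadjusted p under 0.05 there were 1532 probe sets (4.94%), 852 higher at 300 mg/kg (2.74%) and 680 lower (2.19%), beside the 1552.1 that the threshold alone gives. That count was 876 without 300 mg/kg replicate 2, 2702 without 300 mg/kg replicate 3 and 945 without 500 mg/kg replicate 3. The 3 arrays of one dose lay wholly above or below the 3 of the other for 3479 probe sets (11.2%), with 300 mg/kg higher for 1976 (6.37%) and lower for 1503 (4.84%). The differences were small: 657 probe sets exceeded 0.5 in either direction (2.12%) and 39 exceeded 1 (0.126%). The median 95% interval reached 0.27 to either side of the estimate, the precision that 3 arrays a group gave a typical probe set. Of 14217 genes, each read by its brightest probe set, 8484 were higher and 5733 lower at 300 mg/kg, with a median of 0.03.

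The 10 genes described first are those higher at 300 mg/kg with the smallest unadjusted p, picked among genes whose arrays did not overlap between doses. *Cks1b*, a subunit of cyclin-dependent kinases, read 6.88, 6.83 and 6.84 at 300 mg/kg, against 6.51, 6.42 and 6.46 at 500 mg/kg. The difference was 0.39 (SE 0.08). *Ttpa*, the vitamin E transfer protein, read 5.46, 6.10 and 5.65 at 300 mg/kg, against 4.60, 4.58 and 4.76 at 500 mg/kg. It was higher by 1.10 (SE 0.25), a 2.14-fold difference. *Slc51a*, the alpha chain of the organic solute transporter that exports bile acids and steroids, read 8.41, 8.77 and 8.93 at 300 mg/kg, against 8.23, 7.44 and 7.63 at 500 mg/kg. Its lowest 300 mg/kg array was close to the highest 500 mg/kg array, and the difference was 0.94 (SE 0.23). *Helz2*, a helicase that acts as a nuclear receptor coactivator, read 6.62, 6.71 and 6.81 at 300 mg/kg, against 5.87, 5.94 and 5.96 at 500 mg/kg. The vehicle arrays of *Helz2* read 5.96, 6.82 and 6.72, so that one vehicle array matched the 500 mg/kg arrays. *Hes6*, a helix-loop-helix regulator (0.55), *Ptpn21*, a tyrosine phosphatase (0.44), *Txnrd3*, a thioredoxin reductase (0.35), *Rab40b*, a small GTPase (0.39), and *Nxpe3* (0.54) were also among them, as was *Nr1d1* below. The adjusted p of each was 0.863 in limma.

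The 10 ranked genes that were lower at 300 mg/kg were picked in the same way. *Gstm2*, a mu-class glutathione S-transferase, read 6.74, 6.53 and 6.54 at 300 mg/kg, against 6.96, 7.20 and 7.12 at 500 mg/kg. The groups did not overlap, and the difference was -0.49 (SE 0.12). *Amd1*, the decarboxylase that feeds polyamine synthesis, read 9.36, 9.04 and 9.56 at 300 mg/kg, against 9.62, 9.79 and 9.93 at 500 mg/kg. *Ecd*, a cell cycle regulator, read 5.80, 5.81 and 5.89 at 300 mg/kg, against 6.36, 6.32 and 6.33 at 500 mg/kg. The difference was -0.45 (SE 0.13) for *Amd1* and -0.51 (SE 0.15) for *Ecd*. Over the lower doses *Amd1* ran from 9.30 to 9.60, below its 500 mg/kg arrays. *Ecd* ran from 5.68 to 6.68 there and *Gstm2* from 6.62 to 7.17, each overlapping both dose groups. *Bst2*, the interferon-induced tetherin, read 8.82, 7.93 and 8.60 at 300 mg/kg, against 8.95, 9.10 and 8.94 at 500 mg/kg. Its lowest array was 300 mg/kg replicate 2, and the difference of -0.55 (SE 0.17) was -0.29 without that array. *Them4*, an acyl-CoA thioesterase (-0.34), and *Tmem80* (-0.36) completed the set with *Atf5*, *Srxn1*, *Avpr2* and *Tmem174*, described below. The adjusted p of these 10 was likewise 0.863 in limma.

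**Figure D1:**
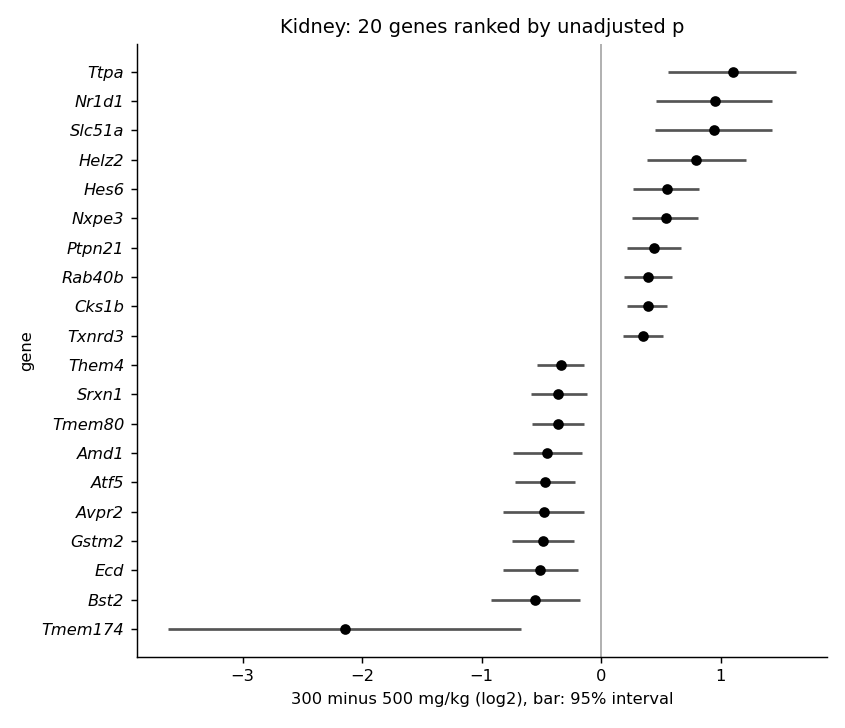
Differences between 300 and 500 mg/kg kidneys (log2, horizontal axis) of the 20 ranked genes, each a point with its 95% interval from limma. The genes were picked on this contrast, so their intervals leave out 0 by that choice; the largest difference is that of Tmem174 at -2.14 with the widest interval, and 0 of the genes passed the adjusted threshold.

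*Tmem174*, which encodes a membrane protein of the kidney tubule, had the largest difference of all probe sets. It read 11.25, 8.22 and 8.48 at 300 mg/kg, against 11.32, 11.41 and 11.65 at 500 mg/kg. One 300 mg/kg array thus sat beside the 500 mg/kg arrays and the other arrays of that dose far below. The difference was -2.14 (95% interval -3.62 to -0.67), 4.42-fold lower, and ran from -3.11 to -1.60 when any one of the 6 arrays was left out. The lower doses, 0.1 to 100 mg/kg, spanned 8.23 to 11.51, so low arrays also occurred there. *Mx2*, an interferon-induced GTPase, split into high and low arrays at both doses. It read 9.56, 8.75 and 4.25 at 300 mg/kg, against 9.50, 4.20 and 4.16 at 500 mg/kg. A second, dimmer probe set of *Mx2* did not show this split, with 5.41 to 6.92 at 300 mg/kg, against 5.85 to 7.04 at 500 mg/kg.

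The circadian clock list had the most members at an unadjusted p under 0.05, 8 of 18 measured, 5 of them higher and 3 lower at 300 mg/kg, beside 4.71% of all genes; 0 of 18 passed the adjusted threshold. The array groups did not overlap for 6 of the 18, beside 11.2% of genes. The promoter windows of *Nr1d1*, *Bmal1* and *Hspa5* are shown because they hold the elements by which these loops and, further on, the chaperone genes are known to be regulated. They are RefSeq windows of build GRCr8 that lie before an annotated start. For *Nr1d1* the window is chr10:84229576-84229695 on the minus strand with the E-box CACGTG, the BMAL1 and CLOCK element, in capitals. For *Bmal1* it is chr1:176766208-176766327 on the plus strand with TAGGTCA, the core of the element bound by the ROR and NR1D receptors, in capitals. For *Hspa5* it is chr3:38452896-38453015 on the plus strand with the ER stress element, CCAAT and CCACG with 9 bases between them, in capitals from end to end.
Nr1d1: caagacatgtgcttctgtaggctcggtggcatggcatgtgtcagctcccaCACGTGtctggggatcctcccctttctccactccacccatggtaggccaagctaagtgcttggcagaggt
Bmal1: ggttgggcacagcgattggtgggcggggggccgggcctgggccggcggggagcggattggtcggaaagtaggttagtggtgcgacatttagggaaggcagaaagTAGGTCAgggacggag
Hspa5: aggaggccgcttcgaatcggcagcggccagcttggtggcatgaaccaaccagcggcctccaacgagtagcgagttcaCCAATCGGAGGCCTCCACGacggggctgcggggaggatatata

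Both strands of 33469 promoter windows of 300 bases were searched. The E-box occurred in 6.42% of them and in 4 of the 16 clock members with a window (*Nr1d1*, *Tef*, *Bhlhe40* and *Bhlhe41*). The ROR core occurred in 2.63% of windows and in *Bmal1* alone among those 16. The ER stress element occurred in 0.0657% of windows and in 8 of 20 chaperone members, *Hspa5*, *Hsp90b1*, *Calr*, *Canx*, *Dnajc3*, *Xbp1*, *Creld2* and *Ero1b*. The shares are per window, while a list member counted once if any window of the gene held a match, so the units differ. A match describes the letters only.

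The clock genes higher at 300 mg/kg were repressors and output factors. *Nr1d1* read 6.48, 6.28 and 6.52 at 300 mg/kg, against 5.20, 5.48 and 5.76 at 500 mg/kg, without overlap, a difference of 0.95 (SE 0.23, 1.93-fold). *Dbp*, the PAR-domain factor that carries clock output to metabolic genes, read 7.54, 7.51 and 8.39 at 300 mg/kg, against 6.57 to 7.17 at 500 mg/kg, a difference of 0.90 (SE 0.37). *Nr1d2*, the partner of *Nr1d1*, read 8.77, 8.42 and 9.08 at 300 mg/kg, against 7.96, 8.39 and 8.38 at 500 mg/kg. Its groups nearly touched, and the difference was 0.51 (SE 0.21). A dimmer probe set of *Nr1d2* overlapped, with 6.89 to 8.25 at 300 mg/kg, against 7.09 to 7.62 at 500 mg/kg, a difference of 0.25. *Cry2* (0.29) did not overlap and *Per3* (0.41, or 0.17 without 300 mg/kg replicate 3) did; both encode repressors of BMAL1 and CLOCK or their relatives. A dimmer probe set of *Cry2* overlapped, with a difference of 0.07.

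The clock genes lower at 300 mg/kg included the activator. *Bmal1* read 6.36, 5.82 and 5.82 at 300 mg/kg, against 6.85, 6.40 and 6.70 at 500 mg/kg, a difference of -0.65 (SE 0.27). *Cry1*, a repressor that peaks late in the cycle, read 6.17, 6.90 and 6.14 at 300 mg/kg, against 7.21, 6.84 and 6.84 at 500 mg/kg. Replicate 2 of the 300 mg/kg group overlapped the other dose, and the difference was -0.56 (SE 0.21), or -0.81 at its largest when one array was left out. *Bhlhe40*, a light- and stress-responsive repressor, read 7.53, 7.22 and 7.45 at 300 mg/kg, against 7.73, 7.83 and 7.73 at 500 mg/kg, a difference of -0.36 (SE 0.14).

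The vehicle arrays spread widely for these genes. *Nr1d1* read 5.91, 6.45 and 7.02 and *Bmal1* 6.73, 6.02 and 5.29 in vehicle kidneys, so the vehicle array with the least *Nr1d1* had the most *Bmal1*. Both comparisons with vehicle share the vehicle arrays and are given side by side. *Nr1d1* differed from vehicle by -0.03 at 300 mg/kg and by -0.98 at 500 mg/kg, and *Dbp* by -0.28 at 300 mg/kg and by -1.18 at 500 mg/kg. Because members went both ways, the list's median was 0.14, and -0.02 to 0.17 as single arrays were left out, with -0.01 without 300 mg/kg replicate 2 and -0.02 without replicate 3, beside 0.03 over all genes. The core factor *Clock* differed by -0.01 and *Per1* by 0.16. The hour at which each animal was killed is not given in the sources used here.

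**Figure D2:**
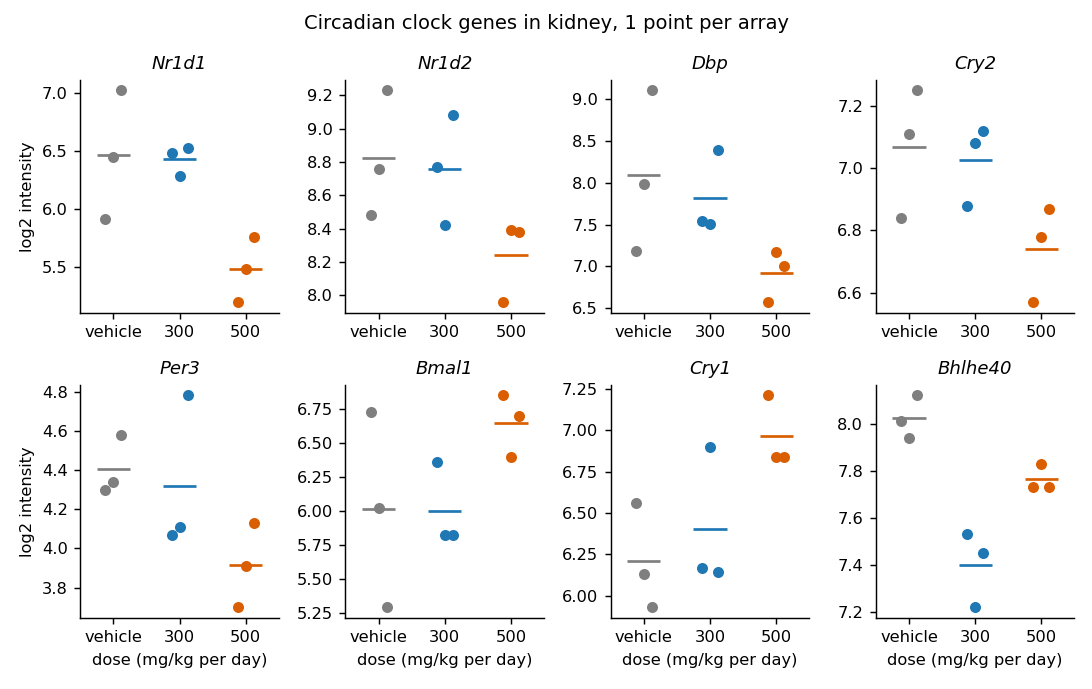
Log2 intensity (vertical axes, each on its own range) of 8 clock genes by dose in kidney, 1 point per array with a line at the group mean. By the brightest probe set of each gene, Nr1d1, Nr1d2, Dbp and Cry2 are higher on all 300 mg/kg arrays than on the 500 mg/kg arrays. Bmal1 and Bhlhe40 are lower on all of them, and Per3 and Cry1 overlap. Dimmer probe sets of Nr1d2 and Cry2, not drawn, overlap.

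Chaperones of the endoplasmic reticulum were mostly lower at 300 mg/kg, by small amounts. Of 24 measured members 20 were lower and 4 higher, with a median of -0.09 beside 0.03 over all genes. At an unadjusted p under 0.05 there were 5 lower and 1 higher, beside 4.71% of all genes, and 0 passed the adjusted threshold. *Hspa5*, the ER's main HSP70 chaperone, read 11.26, 11.03 and 11.40 at 300 mg/kg, against 11.41, 11.58 and 11.88 at 500 mg/kg. The groups came within 0.01 of each other, and the difference was -0.39 (95% interval -0.77 to -0.02). *Pdia4*, which forms disulfide bonds, read 8.55, 8.60 and 8.79 at 300 mg/kg, against 8.80, 8.91 and 8.99 at 500 mg/kg. *Hsp90b1* (-0.30), *Pdia3* (-0.22) and *Sdf2l1* (-0.24) were the others at that threshold. *Dnajb9*, a cochaperone of *Hspa5*, went the other way at 0.25, with 8.44, 8.56 and 8.42 at 300 mg/kg, against 8.16, 8.17 and 8.33 at 500 mg/kg.

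Of 17 cytosolic and mitochondrial heat shock genes 13 were lower and 4 higher at 300 mg/kg, and the median was -0.11. *Hspa4* (-0.30), *Hsp90ab1* (-0.42) and *Hsph1* (-0.35) had an unadjusted p under 0.05, beside 4.71% of all genes. *Hsph1*, an HSP70 nucleotide exchange factor, read 9.05, 9.03 and 9.28 at 300 mg/kg, against 9.30, 9.40 and 9.70 at 500 mg/kg. For *Hsp90ab1* the lowest array was 300 mg/kg replicate 2, at 11.20 beside 11.84 and 11.90. Without that array the difference was -0.19 for *Hsp90ab1*, -0.15 for *Hspa4* and -0.11 for *Pdia3*. Without 500 mg/kg replicate 3 it was -0.23 for *Hsph1*. As single arrays of the 6 were left out, the median ran from -0.16 to -0.06 for the ER chaperones and from -0.17 to -0.02 for the heat shock genes, nearest to 0 without 300 mg/kg replicate 1 for the chaperones and without 500 mg/kg replicate 3 for the heat shock genes.

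The ATF4 list, genes induced when amino acids run short or proteins misfold had 2 of 32 members lower and 3 higher at 300 mg/kg at an unadjusted p under 0.05, beside 4.71% of all genes, with a median of 0.08. *Nupr1*, a stress-induced chromatin protein, read 5.69, 6.22 and 5.72 at 300 mg/kg, against 6.83, 7.78 and 7.36 at 500 mg/kg. The groups did not overlap and the difference was -1.45 (SE 0.53, 2.72-fold lower), with vehicle arrays at 5.75, 4.85 and 6.15. Over the lower doses *Nupr1* ran from 5.02 to 7.63, so its highest reading there lay among the 500 mg/kg arrays. *Atf5*, a transcription factor of the same response, read 7.21, 7.21 and 7.35 at 300 mg/kg, against 7.64, 7.81 and 7.72 at 500 mg/kg, a difference of -0.47 (SE 0.12). *Asns*, asparagine synthetase, read 5.88, 6.07 and 6.22 at 300 mg/kg, against 6.63, 6.77 and 6.61 at 500 mg/kg. It was lower by 0.62 on the log2 scale (difference -0.62, SE 0.29), just short of that threshold. *Psph*, the last enzyme of serine synthesis, read 10.09, 10.63 and 10.04 at 300 mg/kg, against 9.96, 9.18 and 9.59 at 500 mg/kg. The serine-to-glycine enzyme *Shmt2* (0.42) and the glycine transporter *Slc6a9* (0.43) were higher too but overlapped between doses. *Atf4* itself (-0.03), *Ddit3* (-0.06) and *Trib3* (0.18) were close to level.

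In liver the same contrast ran the other way for *Asns*, *Nupr1* and *Atf5*, though not for the list's median. That median was 0.32 in liver and 0.08 in kidney, above 0 in both. *Asns* read 9.04, 8.75, 8.74 and 8.44 in 300 mg/kg livers and 7.33, 8.19, 7.09 and 7.64 in 500 mg/kg livers, a difference of 1.18. *Nupr1* differed by 0.99 and *Atf5* by 0.38 in liver, again without overlap. The adjusted p of the liver contrast was 0.157 for *Nupr1* and 0.494 for *Atf5* in limma, so neither was called there. The test of the organ difference, kidney minus liver, gave -1.80 for *Asns*, -2.43 for *Nupr1* and -0.85 for *Atf5*, with adjusted p-values of 0.512, 0.291 and 0.378 in limma. Of 31042 probe sets 0 passed that test (0.0%), and 2090 had an unadjusted p under 0.05 (6.73%). The labels do not say whether liver and kidney arrays share animals, and the fit treated all arrays as independent.

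**Figure D3:**
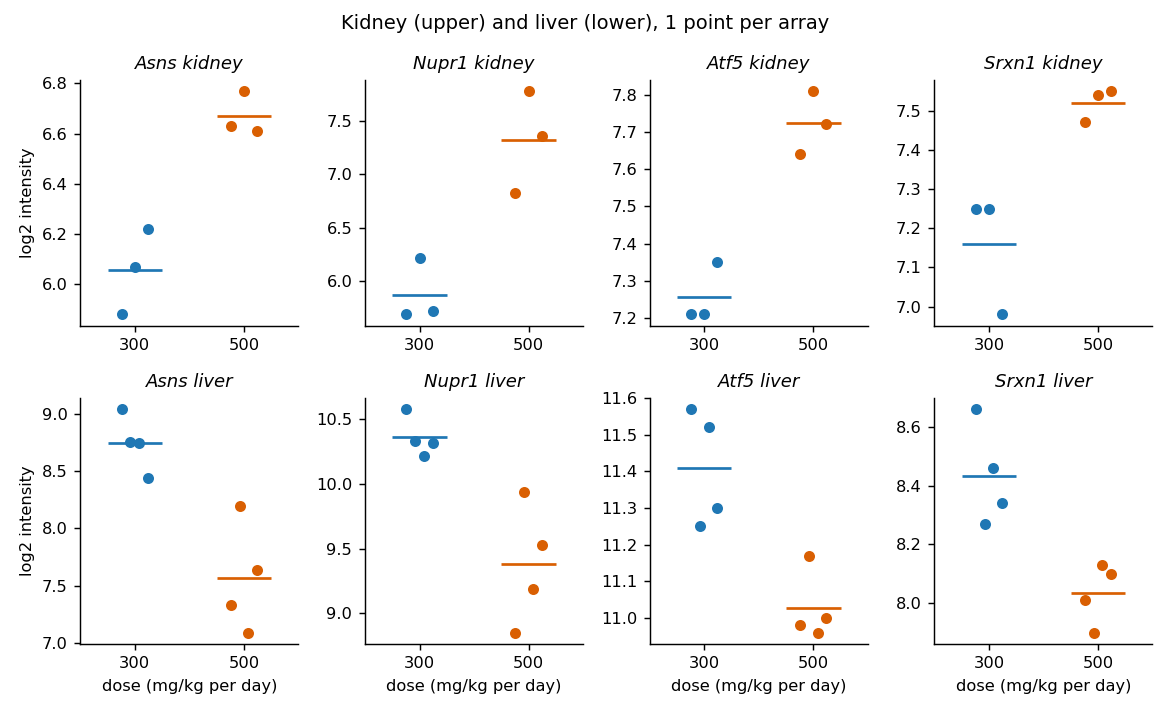
Log2 intensity of Asns, Nupr1, Atf5 and Srxn1 at 300 and 500 mg/kg in kidney (upper panels, 3 arrays a dose) and liver (lower panels, 4 arrays a dose), 1 point per array with a line at the mean and each panel on its own range. The 300 mg/kg arrays lie below the 500 mg/kg arrays in kidney and above them in liver for these genes.

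The thick ascending limb and collecting duct lists had the lowest medians of the 43, while the distal convoluted and connecting tubule list had a median of 0.07, with 3 members higher and 3 lower. The thick ascending limb list had 8 of 9 members lower at 300 mg/kg and a median of -0.34, with -0.18 without 500 mg/kg replicate 2, -0.55 without 500 mg/kg replicate 1 and -0.09 without the replicates numbered 2 of both doses. *Kcnj1*, the potassium channel ROMK, read 7.88, 6.47 and 7.96 at 300 mg/kg, against 7.78, 8.55 and 8.23 at 500 mg/kg. The doses overlapped, and the difference of -0.75 ranged from -1.01 to -0.27 as single arrays were left out, the last without 300 mg/kg replicate 2. *Slc12a1*, the sodium-potassium-chloride cotransporter, read 11.85, 11.39 and 11.60 at 300 mg/kg, against 11.56, 12.48 and 12.03 at 500 mg/kg.

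The collecting duct list had a median of -0.33 over 13 members, 5 higher and 8 lower, and -0.13 without 300 mg/kg replicate 2. *Avpr2*, the vasopressin receptor that controls water recovery, read 5.34, 4.78 and 5.36 at 300 mg/kg, against 5.74, 5.56 and 5.63 at 500 mg/kg, a difference of -0.48 (SE 0.16), or -0.29 without 300 mg/kg replicate 2. *Scnn1a*, the alpha subunit of the epithelial sodium channel, went the other way. It read 5.77, 6.19 and 5.84 at 300 mg/kg, against 5.32, 5.49 and 5.44 at 500 mg/kg, a difference of 0.52 (SE 0.20). *Aqp4*, a basolateral water channel, read 6.08, 7.31 and 6.28 at 300 mg/kg, against 6.61, 8.17 and 8.27 at 500 mg/kg. *Slc14a2*, the urea transporter of the inner medulla, read 3.27, 4.33 and 3.28 at 300 mg/kg, against 2.99, 6.18 and 4.88 at 500 mg/kg. For both, replicates 2 and 3 of the 500 mg/kg group were above all 300 mg/kg arrays. Replicate 1 of the 500 mg/kg group lay among the 300 mg/kg arrays for *Aqp4* and below them for *Slc14a2*. Over the lower doses *Slc14a2* ran from 2.70 to 7.05.

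The proximal tubule list was level, with a median of 0.03 over 28 members. *Aqp1*, its water channel, read 12.32, 12.15 and 12.30 at 300 mg/kg, against 12.43, 12.59 and 12.54 at 500 mg/kg, a difference of -0.27 (SE 0.10). The endocytic receptor *Lrp2* differed by 0.00 with a 95% interval of -0.19 to 0.20. *Cyp27b1*, which activates vitamin D, was higher by 0.38, with 5.89, 5.79 and 5.62 at 300 mg/kg, against 5.36, 5.36 and 5.45 at 500 mg/kg.

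Of 24 kidney injury genes, 2 had doses that did not overlap, *Krt20* higher and *Spp1* lower at 300 mg/kg, beside 11.2% of genes. *Havcr1*, which encodes KIM-1, read 4.09, 3.94 and 5.26 at 300 mg/kg, against 4.00, 4.02 and 3.73 at 500 mg/kg, so a single 300 mg/kg array was high, and the difference of 0.52 was 0.10 without it. *Lcn2*, encoding NGAL, read 5.03, 5.83 and 5.35 at 300 mg/kg, against 5.08, 5.68 and 5.16 at 500 mg/kg, and its difference of 0.10 was -0.12 without 300 mg/kg replicate 2. *Spp1*, osteopontin, read 10.16, 10.07 and 10.17 at 300 mg/kg, against 10.38, 11.31 and 10.66 at 500 mg/kg. Its difference of -0.65 was -0.39 without 500 mg/kg replicate 2, and its vehicle arrays read 9.06, 9.40 and 10.43. Over the lower doses *Spp1* ran from 8.91 to 11.68, so its highest reading there was above all 500 mg/kg arrays. *Krt20*, a keratin of injured tubules, was higher by 0.32 but dim, below the median level of 5.33. It read 4.18, 4.20 and 4.12 at 300 mg/kg, against 3.95, 3.94 and 3.64 at 500 mg/kg. *Anxa2*, a membrane-binding annexin, was lower by 0.39 on the log2 scale at 300 mg/kg (difference -0.39). The list's median was 0.07.

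Among stress and drug-response lists the NRF2 targets had 11 members higher and 17 lower, with a median of -0.04. *Srxn1*, which repairs oxidised peroxiredoxins, read 7.25, 7.25 and 6.98 at 300 mg/kg, against 7.47, 7.54 and 7.55 at 500 mg/kg. *Hmox1*, heme oxygenase, read 5.74, 5.79 and 5.93 at 300 mg/kg, against 6.06, 6.38 and 6.42 at 500 mg/kg. *Gpx2*, a glutathione peroxidase, went the other way with one high array, at 7.85, 6.62 and 6.58 at 300 mg/kg, against 6.77, 6.11 and 6.46 at 500 mg/kg, and its difference of 0.57 was 0.15 without that array. *Nqo1*, another target of NRF2, was level at -0.06. The glucuronosyl- and sulfotransferases, which conjugate alcohols, had a median of -0.20, but -0.02 without 300 mg/kg replicate 2 and -0.12 without 500 mg/kg replicate 2. *Ugt2b35* read 11.19, 12.79 and 11.12 at 300 mg/kg, against 10.94, 10.62 and 10.79 at 500 mg/kg, and its difference of 0.92 was 0.37 without that array. *Sult1a1*, the phenol sulfotransferase, read 8.28, 7.82 and 8.09 at 300 mg/kg, against 8.35, 8.85 and 8.54 at 500 mg/kg.

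Lipid and growth genes gave a few single members. Of 38 PPARA targets 4 were lower at an unadjusted p under 0.05, beside 4.71% of all genes. They were *Pex11a* of peroxisome division (-0.58), *Acsl1*, which activates fatty acids (-0.40), *Angptl4*, a lipase inhibitor (-0.58), and the fatty acid hydroxylase *Cyp4a3* (-0.25), and the list's median was -0.01. *Pex11a* read 8.64, 7.72 and 8.42 at 300 mg/kg, against 8.79, 8.81 and 8.90 at 500 mg/kg, and its difference was -0.31 without 300 mg/kg replicate 2. That of *Acsl1* was -0.26 without 500 mg/kg replicate 2. *Srebf1*, the lipogenic regulator, read 7.56, 7.56 and 7.28 at 300 mg/kg, against 7.75, 7.94 and 7.77 at 500 mg/kg. Cell cycle genes were higher in 29 of 40 members, beside 8484 of all 14217 genes. Their median was 0.14, beside 0.03 over all genes, and 0 of the 40 reached an unadjusted p under 0.05. By array, relative to each gene's kidney mean, the list's median was 0.08, -0.08 and 0.07 at 300 mg/kg, against 0.07, -0.28 and -0.15 at 500 mg/kg. In vehicle kidneys it ran from -0.26 to 0.31. *Gadd45a*, a p53 target of growth arrest, read 9.38, 8.21 and 9.42 at 300 mg/kg, against 9.55, 9.72 and 9.54 at 500 mg/kg. Its difference of -0.60 was -0.20 without 300 mg/kg replicate 2.

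Over the 43 lists, 57 of 744 genes had an unadjusted p under 0.05 (7.66%), beside 4.71% of all genes. That count was 36 without 300 mg/kg replicate 2, 24 without 500 mg/kg replicate 2, 34 without 500 mg/kg replicate 3, and 26 without the replicates numbered 2 of both doses. The doses did not overlap for 100 of the 744 (13.4%), beside 11.2% of genes. List medians ran from -0.34 to 0.15, with 24 above 0 and 19 below.

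**Figure D4:**
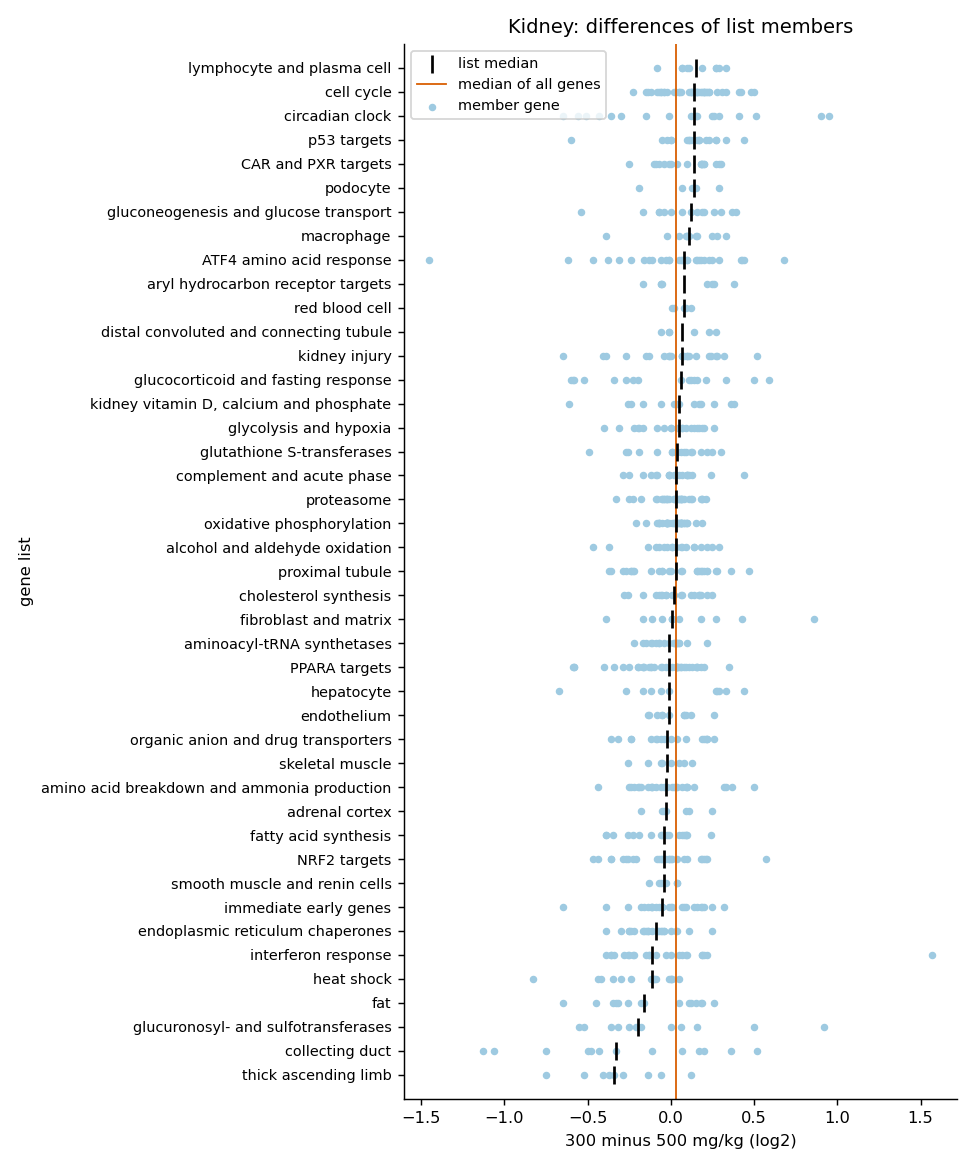
Differences between 300 and 500 mg/kg kidneys (log2, horizontal axis) for the members of 43 gene lists, with a black mark at each list's median and a line at 0.03, the median of all genes. The thick ascending limb and collecting duct lists have the lowest medians, -0.34 and -0.33, and clock members spread to both sides.

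Fat transcripts varied by array rather than by dose. *Ucp1*, the uncoupling protein of brown fat, read 4.44, 9.86 and 5.28 at 300 mg/kg, against 4.58, 9.86 and 4.76 at 500 mg/kg, so replicate 2 of each dose was high. The summed linear intensity of the 15 measured fat markers was 1410, 4710 and 1540 at 300 mg/kg, against 1600, 7380 and 1390 at 500 mg/kg, and it ran from 1350 to 4320 in vehicle kidneys. Among the 15, 7 were higher and 8 lower at 300 mg/kg. Leaving both arrays out left 0 probe sets past the adjusted threshold. As 0 also passed with all arrays, that count cannot show the part of this tissue in the results, which was not tested further.

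**Figure D5:**
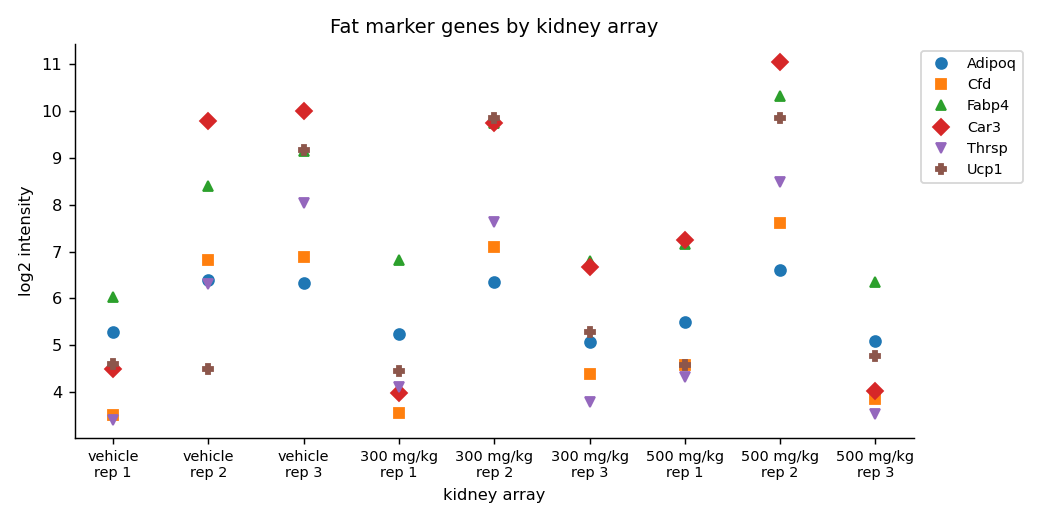
Log2 intensity (vertical axis) of 6 fat marker genes on the 9 kidney arrays of the vehicle, 300 and 500 mg/kg groups. Replicates 2 of 300 and 500 mg/kg are high for all 6 genes, as is vehicle replicate 3, while the other arrays of both doses are low for most of them.

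Against vehicle, the 500 mg/kg kidneys had more probe sets at an unadjusted p under 0.05 than the 300 mg/kg kidneys. There were 1123 at 300 mg/kg (3.62%) and 3131 at 500 mg/kg (10.1%), and 0 passed the adjusted threshold at either dose (0.0%), with smallest adjusted p-values of 0.999 at 300 mg/kg, against 0.326 at 500 mg/kg in limma. These counts share the vehicle arrays, and no test compared them. Without vehicle replicate 1 the adjusted threshold was passed by 103 probe sets at 300 mg/kg and by 616 at 500 mg/kg.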

How the data were processed

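Total RNA was hybridised to Affymetrix rat expression arrays. The authors deposited log2 values made with RMA (background correction, quantile normalization, median polish), per the submitters' processing notes. Neither the software version nor the chip definition is given in the sources used here. Quantile normalization would hide a shift of most transcripts. Arrays carry no read depth: precision is limited by how many arrays there are.

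Of 31099 probe sets, 57 controls were left out, and 20826 had 1 gene symbol (updated through RefSeq, GRCr8). limma 3.58.1 in R 4.3.3 fitted the 17 kidney arrays in 7 dose groups with lmFit and eBayes; the organ difference used all 44 arrays. P-values were two-sided and adjusted by Benjamini-Hochberg over 31042 probe sets, at 0.05. The fit was tested on simulated data. Each gene is read from the probe set brightest on average in kidney. Dimmer probe sets of *Rab40b*, *Avpr2*, *Per3*, *Pdia3*, *Slc6a9* and *Mx2*, and 1 of 2 of *Acsl1*, had the opposite sign.

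The arrays, gene lists and tests were chosen with earlier results of these data known. Named by rule were the 10 genes each way past the threshold, or, as none passed, the 10 with the smallest unadjusted p among genes above the median level (5.33) whose arrays did not overlap; per list, the members past the threshold or the 2 with the smallest p; and a set of injury, tubule segment and metabolism genes. Other list members at an unadjusted p under 0.05, and *Ucp1*, *Mx2*, *Glod5*, *Aqp4*, *Slc14a2*, *Slc12a1*, *Clock*, *Per1*, *Atf4*, *Ddit3* and *Trib3*, were chosen after their values were seen. Lists had 887 entries, 791 measured, and were described by counts and medians. Replicate numbers did not pair the arrays: deviations of equal numbers at 300 and 500 mg/kg correlated at -0.11, 0.10 and 0.20. No 2 arrays held identical values. Alternatives were another filter, quantile normalization within kidney, a 2-group fit, trend and robust settings, array weights, a replicate block, gene means and leaving out arrays.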

Additional observations from a re-analysis of the deposited data

Results flagged for a closer look

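For 6 of 140 named genes every 300 mg/kg array lay on one side of every 500 mg/kg array in kidney and on the other side in liver. *Atf5*, *Srxn1* and *Tmem174* had been picked because their kidney arrays did not overlap, as was so for 11.2% of all genes. *Nupr1* and *Cd14* had been picked for a small unadjusted p in the same kidney contrast. *Asns* was named with earlier results of these data known. The kidney side of the pattern was thus largely set by the choice of genes. The share of all genes that lay on opposite sides in kidney and liver was not computed, so the count of 6 has no background beside it. The liver difference, 300 minus 500 mg/kg, was 1.18 for *Asns*, 0.99 for *Nupr1*, 0.38 for *Atf5*, 0.40 for *Srxn1*, 0.37 for *Tmem174* and -0.54 for *Cd14*, a macrophage receptor for bacterial lipid. The kidney differences were -0.62, -1.45, -0.47, -0.36, -2.14 and 0.33 in the same order of genes. The organ difference itself was tested, and its adjusted p in limma was 0.512, 0.291, 0.378, 0.245, 0.378 and 0.707, so 0 of the 6 passed. *Tmem174* in liver was dim, at 3.48 to 3.73 in 300 mg/kg livers and 3.21 to 3.28 in 500 mg/kg livers. *Srxn1* read 8.27 to 8.66 in 300 mg/kg livers and 7.90 to 8.13 in 500 mg/kg livers. Single kidney arrays that stand apart, such as 300 mg/kg replicate 2, were described above, but no test for them was run in groups of 3 arrays.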

How the results depend on the processing

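Under all 15 alternatives, array omissions included, the 300 against 500 mg/kg comparison called 0 probe sets, with a smallest adjusted p of 0.338. At an unadjusted p under 0.05, leaving out 1 array at a time gave 876 (without 300 mg/kg replicate 2) to 2702 (without 300 mg/kg replicate 3). It was 757 without the replicates numbered 2 of both doses, 2291 with array weights, 811 among probe sets above the median level and 700 genes with gene means. The replicate block, whose numbers do not pair the arrays, gave 0 calls and 1445 probe sets at that threshold. The comparisons with vehicle gave 0 to 103 calls for the 300 mg/kg kidneys, while the 500 mg/kg kidneys gave 0 to 616, as single arrays were left out, the highest without vehicle replicate 1, and 424 at 500 mg/kg with array weights. The organ difference gave 0 to 1, the single call arising without 300 mg/kg replicate 1, 500 mg/kg replicate 1 or 500 mg/kg replicate 3 in turn. The 20 ranked genes kept their direction in 300 of 300 values. They were picked because their arrays did not overlap, so leaving out or weighting arrays could not reverse them. The filter, the 2-group fit, the trend and robust settings and the omission of a vehicle array leave a difference of group means unchanged. The 300 of 300 was thus largely fixed beforehand. Among all named genes, 27 of 2080 values changed sign, a total that also holds the settings that leave differences unchanged. With the mean of all probe sets of a gene these were *Podxl* (-0.06), *Myh11* (0.10), *Tiparp* (-0.12) and *Eprs1* (-0.22). With array weights they were *Ucp1* (-0.83), *Lcn2* (-0.06) and *Cyp2e1* (-0.04). Without the replicates numbered 2 of both doses, an alternative chosen after seeing the data, they were *Cyp2c11* (0.27), *Glod5* (0.14), *Cyp4a1* (-0.10), *Slc34a1* (-0.06), *Adh1c* (-0.02), *Cyp2e1* (-0.17) and *Slc3a2* (-0.02). Leaving out single arrays moved *Myh11* between -0.22 and 0.05, *Tagln* between -0.42 and 0.07, *Alas2* between -0.04 and 0.19, *Ucp1* between -1.54 and 1.86, *Glod5* between -1.76 and 0.23, *Lcn2* between -0.12 and 0.28, *Cyp1a1* between -0.32 and 1.01, *Pck1* between -0.01 and 0.32, and *Cyp2e1* between -0.06 and 0.35. The cause of these changes was not tested.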
